A study of Arabidopsis thaliana with 16 samples.

Results

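A set of 9 genes of late embryogenesis and seed maturation were followed in Arabidopsis seedlings across 2 light conditions and a steroid treatment. The genes were chosen by name, with earlier results of these data known. Each was read by its brightest single-gene probe set over 16 arrays. All 9 of 9 were measured, among 13350 genes with such a probe set. AT2G42560, AT3G53040, AT3G15670, AT4G21020, AT5G44310 and AT1G72100 belong to the LEA_4 group of the late embryogenesis abundant (LEA) family. LEA4-5 belongs to the LEA_1 group, and M10 and M17 form a small group of their own. Each had 1 single-gene probe set, so no gene was read by several.

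All seedlings carried FHY3p:FHY3-GR in the fhy3-4 mutant, that is, the transcription factor FHY3 fused to the glucocorticoid receptor (GR) and driven by the FHY3 promoter. They grew for 4 days in the dark or under continuous far-red light and were then kept for 2 h with 10 µM dexamethasone (DEX), which sends the fusion protein into the nucleus, or with the solvent ethanol (mock). The 4 groups, dark mock, dark DEX, far-red mock and far-red DEX, held 4 arrays each, which the series calls biological replicates. The controls carry the fusion and the fhy3-4 mutation too, and no group without the fusion was analysed here, so an effect of DEX itself cannot be told apart from one of nuclear FHY3-GR. The labels do not say how many lines or seedlings went into an array.

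Most LEA proteins are very hydrophilic, and many accumulate in the embryo as the seed dries. They are thought to protect membranes and enzymes against loss of water. Many of their genes are switched on by abscisic acid and by the regulators of seed maturation, above all ABI3 and ABI5. Many are shut down as the seedling establishes itself. LEA4-5 is also made in vegetative tissue under water deficit. FHY3 acts in phytochrome A signalling, the pathway that lets seedlings perceive far-red light.

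Values are the deposited log2 signals per probe set, so a step of 1 is a doubling of signal. Levels are compared between groups for the same gene only. Within a group the arrays' correlations were 0.9956 to 0.9981, and array medians ran from 6.6 to 6.68. The measured green tissue markers, RCA, PSAN and SBPASE, averaged 10.58 to 10.85 on the dark mock arrays and 12.16 to 12.28 on the far-red mock arrays, so the arrays differed by light in photosynthesis genes. FHY3 is not analysed here, so the labels were not checked against the level of the targeted gene. The whole seedling was sampled, so fewer cells that make a transcript and less of it per cell cannot be told apart.

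In darkness DEX lowered 5 of the 9 genes: M17, AT3G53040, AT4G21020, LEA4-5 and AT5G44310. None of the 9 rose, which is near the general share, since 2.34% of all 22746 probe sets tested did. The falls ran from 1.36-fold to 2.93-fold, and the 4 DEX arrays lay wholly below the 4 mock arrays for each of the 5. Among all probe sets 3.56% were called lower (adjusted p under 0.05) and 5.6% had all DEX arrays below all mock arrays. As the 9 genes were chosen with earlier results of these data known, setting them beside these shares is a description only. The median log2 change was -0.45 over the 9 genes and 0.01 over all probe sets.

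M17, a gene of late seed maturation, moved most of the 9. Its log2 signal was 8.88, 8.53, 8.74 and 8.36 on the dark mock arrays and 7.21, 7.66, 6.63 and 6.82 on the dark DEX arrays. The highest DEX array stood well below the lowest mock array, although the DEX arrays were spread more widely (SD 0.46) than the mock arrays (SD 0.23). The change was -1.55 ± 0.22 on the log2 scale (SE; limma adjusted p = 7.26e-05), a 2.93-fold fall.

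LEA4-5 read 7.87, 7.5, 7.63 and 8.0 on the dark mock arrays and 7.25, 7.07, 7.23 and 7.17 on the dark DEX arrays. The DEX arrays were tightly grouped below all mock arrays, of which replicate 2 was the lowest. The fall was 1.48-fold (log2 change -0.57 ± 0.09, limma adjusted p = 0.000226).

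AT3G53040 stood at 5.83, 5.52, 5.81 and 6.25 in dark mock and at 5.24, 5.28, 5.42 and 5.0 in dark DEX. Mock replicate 2 lay only just above the highest DEX array, so the groups were narrowly apart. Its log2 change was -0.62 ± 0.13 (limma adjusted p = 0.00346). AT4G21020 went from 6.48, 6.27, 6.05 and 6.23 to 5.5, 5.88, 5.59 and 5.72. The groups did not overlap, and the change was -0.59 ± 0.14 (limma adjusted p = 0.0127). This call was lost without dark DEX replicate 1 (log2 change -0.53, limma adjusted p = 0.0528) and without dark mock replicate 1 (-0.51, 0.0579), while 22 of the 24 alternatives kept it, with adjusted p from 0.00168 to 0.0579 over all of them. AT5G44310 fell from 5.18, 5.31, 5.42 and 5.12 to 4.65, 4.94, 4.77 and 4.90 (log2 change -0.45 ± 0.10, limma adjusted p = 0.00565), again with the groups apart.

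The remaining 4 genes were not called in darkness, and their arrays overlapped. M10, which lies near M17 on chromosome 2 with 1 gene between them, averaged 5.97 ± 0.26 in mock and 5.54 ± 0.15 under DEX (SD, n = 4 each). Its log2 change of -0.42 ± 0.14 did not pass (limma adjusted p = 0.082), but it did without dark mock replicate 2 (-0.54, adjusted p = 0.0169). Over the 23 alternatives in which M10 was tested its adjusted p ran from 0.0169 to 0.24. AT3G15670 changed from 7.73 to 7.33 (log2 change -0.40 ± 0.14, limma adjusted p = 0.104), and passed only without dark DEX replicate 2 (-0.51, adjusted p = 0.0374). AT2G42560 stood at 5.26 in mock and 4.95 under DEX (-0.31 ± 0.11, limma adjusted p = 0.121). AT1G72100 gave 4.18 and 4.16, a difference of -0.02 ± 0.11 with a 95% interval from -0.25 to 0.21. On average only 20.1% of probe sets were dimmer than AT1G72100 on the dark arrays, and the files give no background, so a fall of this gene in darkness might not be measurable.

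**Figure D1:**
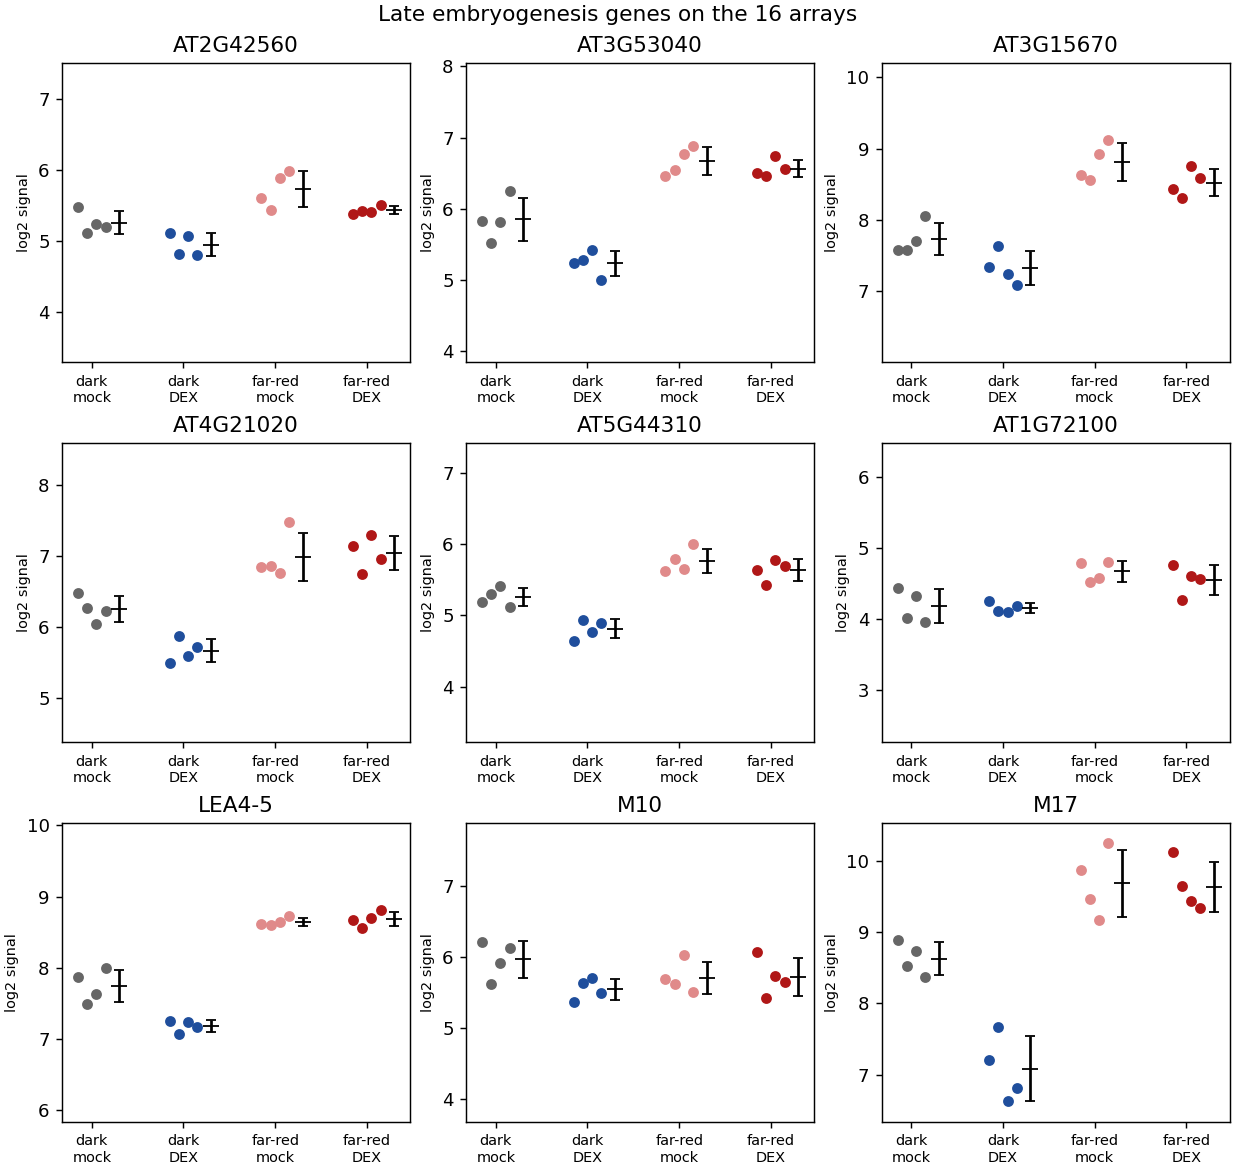
Log2 signal of each of the 9 genes on the 16 arrays, by group (dots: arrays, in order of replicate; black bars: mean and SD of 4 arrays; all panels span the same number of log2 units). For M17 the dark DEX arrays reach at most 7.66 and the dark mock arrays at least 8.36, while the far-red groups overlap.

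Of the seed storage and oil body genes, listed as markers of seed and embryo tissue, 2 of the 5 measured fell as well, against 3.56% of all probe sets. Averaged over the 5 measured of 18 listed, their log2 signal was 6.05 to 6.38 on the dark mock arrays and 5.16 to 5.6 on the dark DEX arrays, with no overlap. The 2 called were the vicilin-like genes AT2G28490 (log2 change -1.95 ± 0.16, limma adjusted p = 4.29e-08) and PAP85 (-1.69 ± 0.24, 8.09e-05). AT1G03890 (-0.25), AT2G18540 (0.06) and the oleosin gene OLEO3 (-0.09) were not called. AT1G03890 and AT2G18540 averaged 4.20 and 3.47 in dark mock, below the arrays' lower quartiles of 4.38 to 4.5. A fall of either might not be measurable, and the average over the 5 genes includes both. The main cruciferin and albumin genes, which define seed tissue most sharply, are not analysed here. The 6 measured root markers averaged 5.31 to 5.77 in dark mock and 5.71 to 6.11 in dark DEX, which overlap. All 6 had log2 changes above 0 (median 0.30). Of the 6, 1 was called higher, AT1G30870 (0.62 ± 0.11, limma adjusted p = 0.00134), against 2.34% of all probe sets. The 3′ minus 5′ signal of the ubiquitin transcript, a measure of RNA quality, was 1.27 ± 0.01 in dark mock and 1.21 ± 0.04 in dark DEX on one pair of control probe sets, and 0.33 ± 0.06 and 0.30 ± 0.03 on another (log2 scale, SD, n = 4 each). On the first pair the dark DEX arrays (1.15 to 1.25) lay below the dark mock arrays (1.26 to 1.28). The same measure was -0.15 ± 0.09 in dark mock and -0.27 ± 0.10 in dark DEX for actin, and -0.03 ± 0.10 and -0.06 ± 0.06 for GAPDH (SD, n = 4 each). The part of these in the fall of the LEA genes was not tested.

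In far-red light none of the 9 genes was called for DEX against mock, and the DEX and mock arrays overlapped for all 9. Over all probe sets the arrays lay apart for 3.14% as higher and 3.27% as lower under DEX, so none of 9 is near the general share. At an adjusted p under 0.05, 1.04% of all probe sets were called in either direction, so the count of called genes is near the general share too. By limma at an unadjusted p under 0.05, 1 of the 9 passed, as did 2280 of the 22746 probe sets. In darkness 8 of the 9 passed this unadjusted limit, as did 16.3% of all probe sets. The median log2 change was -0.10 for the 9 genes and -0.02 for all probe sets, with 3 genes above 0 and 6 below. M17 averaged 9.69 ± 0.47 in mock and 9.64 ± 0.35 under DEX (SD, n = 4 each), and the arrays of both treatments overlapped widely. Its difference was -0.05 on the log2 scale, with a 95% interval from -0.51 to 0.41. That interval does not reach the -1.55 measured in darkness.

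LEA4-5 was the most precisely measured of the 9: its arrays gave 8.62, 8.60, 8.65 and 8.72 in far-red mock and 8.67, 8.56, 8.70 and 8.81 in far-red DEX. The 2 sets interleave, and the difference of 0.04 had a 95% interval from -0.15 to 0.23. AT4G21020 (0.05, interval -0.24 to 0.35), M10 (0.01, -0.28 to 0.30), AT3G53040 (-0.10, -0.37 to 0.16), AT5G44310 (-0.13, -0.33 to 0.07) and AT1G72100 (-0.12, -0.35 to 0.11) had intervals on both sides of 0. AT2G42560 was the 1 with an unadjusted p under 0.05: its arrays stood at 5.61, 5.43, 5.89 and 5.99 in mock and at 5.38, 5.43, 5.41 and 5.51 under DEX. The mock arrays reached higher, but the groups overlapped, and the difference of -0.30 ± 0.11 did not pass (limma adjusted p = 0.311). For AT3G15670 the difference was -0.29 ± 0.14 (limma adjusted p = 0.501). For AT2G42560 and AT3G15670 the log2 changes in far-red and in darkness were thus of like size, and neither was called in either light.

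The difference between the DEX responses in the 2 lights was tested in the same model. It was called for 2 of the 9 genes, both with the higher value in far-red, against 1.7% of all probe sets called in that direction and 0.448% in the other. At an unadjusted p under 0.05 by limma, 6 of the 9 passed, as did 12.6% of all probe sets. For M17 the response was 1.5 ± 0.31 higher in far-red than in darkness on the log2 scale (limma adjusted p = 0.0103). For LEA4-5 it was 0.61 ± 0.13 higher (limma adjusted p = 0.0106). With a trended and robust variance prior M17 had the same difference and an adjusted p of 0.0572, while LEA4-5 kept its call under all 23 alternatives (adjusted p 0.00129 to 0.0295).

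AT4G21020 (0.64 ± 0.20, limma adjusted p = 0.118), AT3G53040 (0.51 ± 0.18, 0.179), M10 (0.43 ± 0.19, 0.345) and AT5G44310 (0.32 ± 0.14, 0.326) had positive differences that were not called. AT4G21020 passed without far-red mock replicate 4 (0.80, adjusted p = 0.00741), the array that stands apart for this gene, and AT3G53040 passed without dark mock replicate 2 (0.63, adjusted p = 0.0481). For AT3G15670, AT2G42560 and AT1G72100 the differences were 0.12, 0.01 and -0.10. A loss that was larger in darkness than in far-red was therefore shown for M17 and LEA4-5 and not for the other 7. It was not particular to these genes. Of the 5 seed storage and oil body genes measured, 2 were called for this difference, against 1.7% of all probe sets. They were AT2G28490 (1.88 ± 0.22, limma adjusted p = 4.56e-05) and PAP85 (1.42 ± 0.34, 0.0309). Their DEX changes in far-red, -0.07 and -0.27, were not called. The differences of AT1G03890 (0.34), AT2G18540 (-0.01) and OLEO3 (-0.19) were not called.

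**Figure D2:**
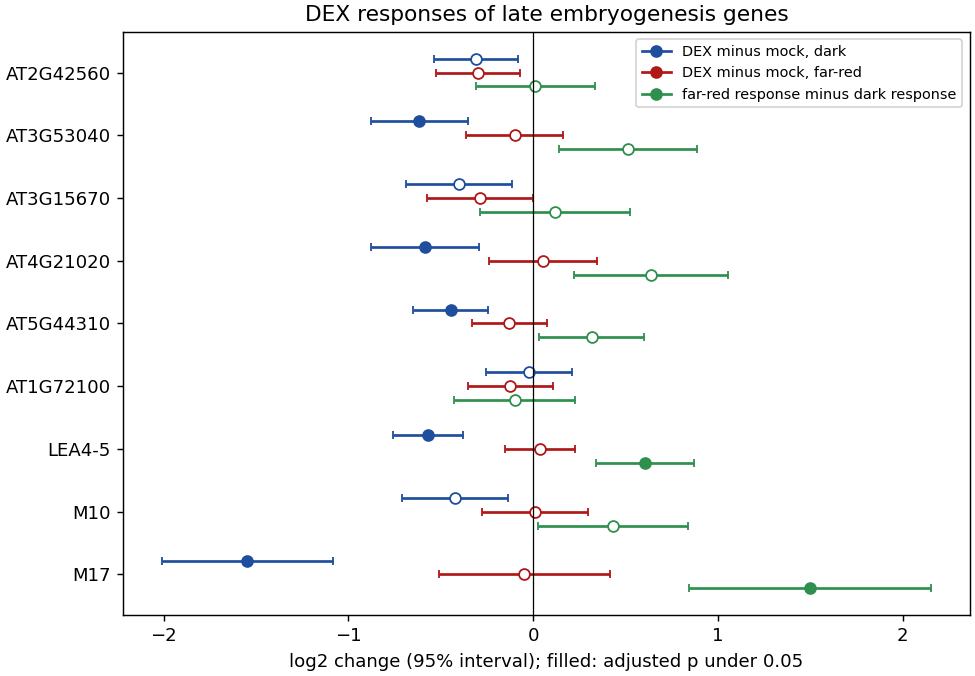
Log2 change with DEX in darkness (blue) and in far-red (red), and the far-red response minus the dark response (green), for the 9 genes, with 95% intervals from the model. Filled dots passed at an adjusted p under 0.05: 5 in darkness, 0 in far-red and 2 for the difference, M17 and LEA4-5.

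Far-red light itself went with higher levels of these genes. Under mock, 8 of the 9 were higher in far-red than in darkness, against 17.8% of all probe sets called higher and 20.8% lower, and for 7 of the 8 the arrays lay apart (16.1% of all probe sets in that direction). The exception among the 8 was AT2G42560, called higher at 0.47 ± 0.11 (limma adjusted p = 0.0015) with arrays that overlapped. The median log2 change was 0.73 for the 9 genes and 0.00 for all probe sets.

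AT3G15670 rose most under mock, 2.11-fold. Its arrays went from 7.58, 7.58, 7.71 and 8.06 in darkness to 8.63, 8.56, 8.93 and 9.12 in far-red, a log2 change of 1.08 ± 0.14 (limma adjusted p = 1.91e-06). M17 followed with 1.06 ± 0.22 (0.000605), from 8.36 to 8.88 in darkness to 9.87, 9.46, 9.16 and 10.25 in far-red. LEA4-5 rose 1.87-fold, from at most 8.0 in darkness to at least 8.60 in far-red (log2 change 0.90 ± 0.09, limma adjusted p = 6.58e-08). AT3G53040 (0.81), AT4G21020 (0.73), AT5G44310 (0.51) and AT1G72100 (0.49) rose too.

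M10 was the 1 gene of the 9 not called for light. Its arrays overlapped between all 4 groups, with 5.97 ± 0.26 in dark mock, 5.54 ± 0.15 in dark DEX, 5.71 ± 0.22 in far-red mock and 5.72 ± 0.27 in far-red DEX (SD, n = 4 each). Under mock the difference between far-red and darkness was -0.26 ± 0.14 (limma adjusted p = 0.15), opposite in sign to the other 8, and it passed as lower in far-red without dark mock replicate 2 (-0.38, adjusted p = 0.0344) or without far-red mock replicate 3 (-0.37, adjusted p = 0.044).

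Under DEX, far-red against darkness again gave 8 of 9 genes higher (17.5% of all probe sets, with 22.2% lower), and the arrays lay apart for all 8 (17.4% of all probe sets in that direction). This contrast shares its arrays with the DEX contrasts. M17 rose 5.88-fold, from arrays between 6.63 and 7.66 to arrays at 10.12, 9.64, 9.44 and 9.34, a log2 change of 2.56 ± 0.22 (limma adjusted p = 6.51e-09). LEA4-5 rose 2.84-fold (1.51 ± 0.09, limma adjusted p = 2.47e-11), AT4G21020 by 1.37 ± 0.14 on the log2 scale and AT3G53040 by 1.33 ± 0.13. AT3G15670 (1.20), AT5G44310 (0.82), AT2G42560 (0.48) and AT1G72100 (0.39) also rose, and M10 stood at 0.17 ± 0.14 (limma adjusted p = 0.368). The median over the 9 genes was 1.20, against -0.03 over all probe sets.

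**Figure D3:**
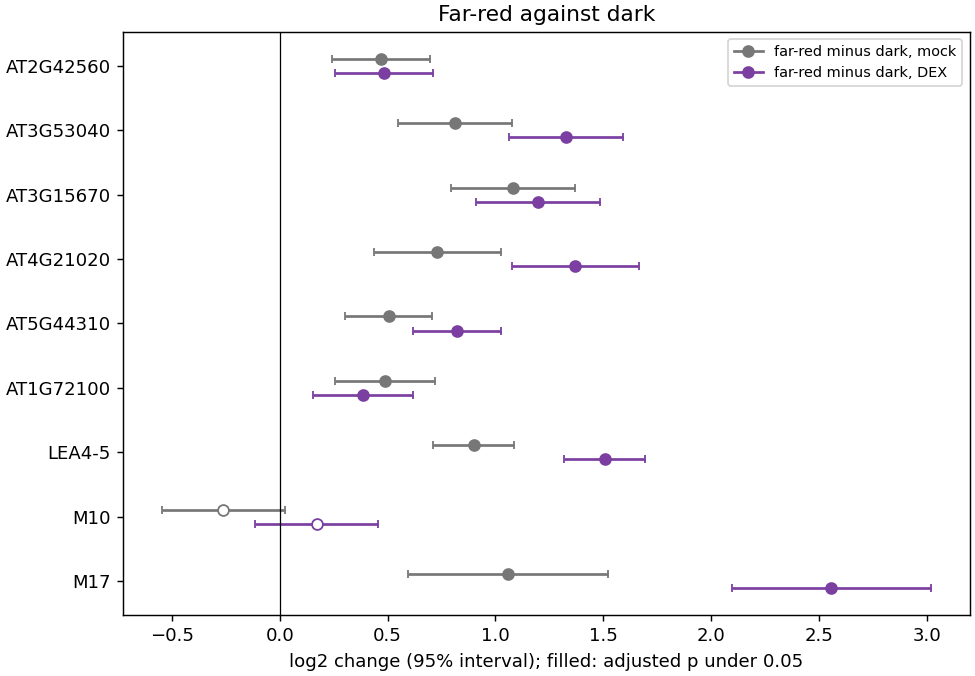
Log2 change of far-red against darkness under mock (grey) and under DEX (purple) for the 9 genes, with 95% intervals from the model; filled dots passed at an adjusted p under 0.05. M17 stands at 1.06 under mock and 2.56 under DEX, and M10 is the 1 gene not called in either.

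The seed storage and oil body genes did not share the whole of this light pattern. Their average over 5 genes was 6.05 to 6.38 on the dark mock arrays and 5.91 to 6.34 on the far-red mock arrays, which overlap. PAP85 (0.66) and AT2G28490 (0.47) were higher in far-red under mock. OLEO3, the coat protein of seed oil bodies, was lower there by -1.80 ± 0.10 (limma adjusted p = 1.83e-11). With DEX the average over the 5 genes was 5.16 to 5.6 in darkness and 5.88 to 6.1 in far-red, with no overlap. AT2G28490 (2.36) and PAP85 (2.08) then stood higher in far-red, and OLEO3 (-1.99) lower. AT1G03890 (0.23) and AT2G18540 (0.14) did not pass in that comparison. For AT2G28490, PAP85 and the average, the light difference under DEX thus went the way of the LEA genes. The 6 root markers averaged 5.31 to 5.77 in dark mock and 5.83 to 5.98 in far-red mock, with no overlap. Of the 6, 3 were called higher in far-red (median log2 change 0.42), against 17.8% of all probe sets. Under DEX the root markers averaged 5.71 to 6.11 in darkness and 5.72 to 5.97 in far-red, which overlap. There 1 was called higher and 1 lower, against 17.5% and 22.2% of all probe sets. The 3′ minus 5′ signal of actin also moved with light: it was -0.25 to -0.06 on the dark mock and -0.01 to 0.34 on the far-red mock arrays, and -0.41 to -0.17 against -0.10 to 0.11 under DEX. That of GAPDH overlapped between the lights under both treatments. For ubiquitin one pair of control probe sets gave 1.26 to 1.28 on the dark mock and 1.13 to 1.24 on the far-red mock arrays. Under DEX that pair overlapped between the lights (1.15 to 1.25 and 1.19 to 1.35), and the other pair overlapped under both treatments. The part of seed tissue, root tissue and RNA quality in the light difference of the LEA genes was not tested.

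In order of mean level, dark DEX was lowest for all 9 genes, and dark mock came next for 8. The far-red groups were the higher pair for those 8, with mock above DEX for AT2G42560, AT3G53040, AT3G15670, AT5G44310, AT1G72100 and M17 and DEX above mock for AT4G21020 and LEA4-5. By adjusted p, DEX against mock was called for none of those 8 in far-red and for 5 of them in darkness. Dark mock against far-red DEX was not tested. For M10 the order was dark DEX, far-red mock, far-red DEX and dark mock, and the arrays of all neighbours in it overlapped.

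Across the 16 arrays, which share the 4 groups, the 8 genes other than M10 went together, with Pearson correlations from 0.72 to 0.97 over their 28 pairs (median 0.88). M10 correlated at 0.09 to 0.23 with the other 8. After each group's mean was taken away, the correlations of the 28 pairs fell to between -0.19 and 0.79 (median 0.30), so most of what these genes shared lay between the groups. The highest of these was 0.79, for AT3G53040 and AT3G15670. The mean of the 9 genes' z-scored signals was lowest on the dark DEX arrays, from -1.34 to -1.05. On the dark mock arrays it was 0.07, -0.64, -0.23 and -0.19, with replicate 2 nearest to the DEX arrays. The far-red mock arrays ran from 0.53 to 1.21 and the far-red DEX arrays from 0.18 to 0.86.

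The rest of the LEA family was then examined. Of 51 LEA genes listed in 9 groups, 35 were measured, 26 of them other than the 9. With DEX in darkness 2 of these 26 fell, LEA18 and AT3G17520, and 0 rose, with a median log2 change of -0.02. Over all probe sets 3.56% fell and 2.34% rose, so 2 of 26 is near the general share. Several of the 26 were dim, with dark mock means down to 3.03, below the arrays' lower quartiles of 4.38 to 4.5. A fall of these genes might not be measurable. LEA18, of the same LEA_1 group as LEA4-5, fell from 7.88 ± 0.13 to 7.13 ± 0.13 (SD, n = 4 each). Its log2 change was -0.75 ± 0.11 (limma adjusted p = 0.000158). AT3G17520, of the LEA_4 group, fell from 7.38 ± 0.16 to 6.89 ± 0.05 (-0.50 ± 0.11, limma adjusted p = 0.00577). For both genes the DEX arrays lay below all mock arrays. AtLEA4-1, the remaining gene of the LEA_1 group and named here after its values were seen, changed by -0.49 ± 0.15 (limma adjusted p = 0.0683). All 3 LEA_1 genes thus had changes between -0.75 and -0.49, of which 2 were called.

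Among the other groups 0 of 6 dehydrin, 0 of 3 PvLEA18, 0 of 2 LEA_2, 0 of 2 LEA_3 and 0 of 2 seed maturation protein genes were called with DEX in darkness. Over all probe sets 3.56% were called lower and 2.34% higher, so these counts are near the general share. The 2 seed maturation protein genes averaged 3.96 and 3.94 in dark mock, where a fall might not be measurable. The 6 dehydrin genes, whose proteins bind water and membranes, had changes from -0.29 to 0.34. In the LEA_4 group 3 of the 6 genes first named fell (AT3G53040, AT4G21020 and AT5G44310) and 1 of the 9 others did, against 3.56% of all probe sets. Several of the 9 others, and AT1G72100 of the 6, averaged below the arrays' lower quartiles of 4.38 to 4.5 in dark mock. A fall of those might not be measurable. The genes first named were chosen with earlier results of these data known, so this split is a description only. In far-red none of the 26 was called with DEX, against 1.04% of all probe sets, so this too is near the general share.

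LEA18 and AT3G17520 were also called for the difference of the responses, at 0.65 ± 0.16 (limma adjusted p = 0.037) and 0.62 ± 0.15 (0.0347). These 2 calls depended on the arrays: over the 26 genes 2 calls were made when the array left out was dark DEX replicate 4, replicate 2 of far-red DEX or replicate 4 of far-red mock. There was 1 call when replicate 2 of dark DEX, or 2 or 3 of dark mock, was left out, and 0 without any other single array.

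Under mock 13 of the 26 were higher in far-red and 3 lower, against 17.8% and 20.8% of all probe sets. Under DEX 12 were higher and 3 lower, against 17.5% and 22.2% of all probe sets. COR15A and COR15B, members of the LEA_4 group that are best known from the cold, led by a wide margin at 4.69 and 3.52 under mock, with DEX changes in darkness of 0.01 and -0.14. COR15A averaged 4.34 in dark mock, where a fall with DEX might not be measurable. LEA18 (0.91), AT3G17520 (0.98) and AtLEA4-1 (1.17) were also higher in far-red under mock. The median over the 26 was 0.25 under mock and 0.23 under DEX.

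**Figure D4:**
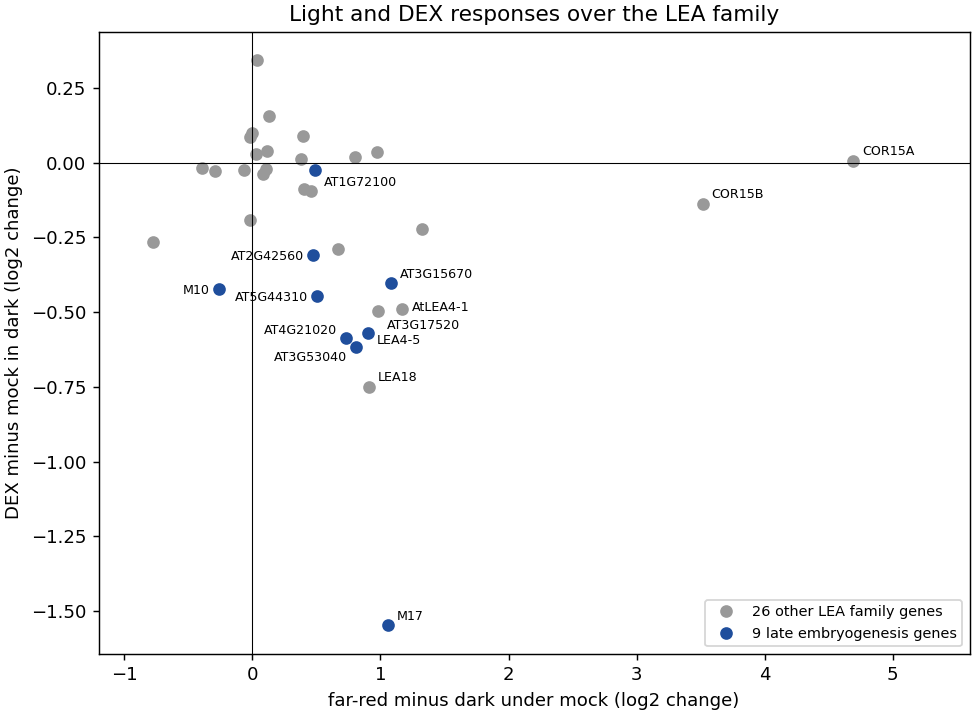
Log2 change with DEX in darkness (vertical) against that of far-red over darkness under mock (horizontal), for the 9 genes (blue) and the other 26 measured LEA family genes (grey); the 2 contrasts share the dark mock arrays. M17 lies lowest at -1.55, and COR15A lies far right at 4.69 with a DEX change near 0.

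Among regulators, only EEL, a bZIP factor of seed maturation, and AT5G42910, listed with the bZIP factors that act on abscisic acid response elements, were measured. EEL had log2 changes of -0.08 ± 0.10 with DEX in darkness and -0.02 ± 0.10 in far-red, and -0.24 ± 0.10 for far-red over darkness under mock (limma adjusted p = 0.0546). AT5G42910 stood at -0.02 ± 0.09, 0.03 ± 0.09 and -0.10 ± 0.09. Neither was called in any of the 5 comparisons. AT5G42910 averaged 3.89 in dark mock, below the arrays' lower quartiles of 4.38 to 4.5, so a fall of it might not be measurable. The listed genes of abscisic acid synthesis and of its core signalling chain are not analysed here.

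Finally, 13341 other genes were ranked by the Pearson correlation of their signal over the 16 arrays with the mean z-score of the 9 genes. The 10 most alike were AT3G54940 (r = 0.992), AT1G04560 (0.982), AT1G54870 (0.981), AT2G18670 (0.981), AT5G45690 (0.974), AT5G19120 (0.97), AT1G04350 (0.968), AT5G55970 (0.967), AT1G80380 (0.966) and ATOEP16-2 (0.966), the last a protein of the outer plastid envelope. Since they were chosen for this pattern, their changes are a description: with DEX they ran from -0.90 to -0.54 in darkness and from -0.33 to 0.09 in far-red. AT3G54940, the closest, had group means of 6.52 in dark mock, 5.70 in dark DEX, 7.35 in far-red mock and 7.12 in far-red DEX.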

How the data were processed

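RNA of 16 whole-seedling samples was hybridised to Affymetrix ATH1 arrays. The values the authors deposited are log2 signals of probe sets, summarised and normalised with RMA and the affy package, per the submitters' processing notes; their versions are not given in the sources used. No background or detection call was used here, so precision rests on 4 arrays per group. Groups and replicate numbers came from the titles.

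Of 22810 probe sets, 64 controls were left out and 22746 tested. Of these, 13513 are paired with 1 gene, 503 with several and 8730 are unnamed here; 13436 matched RefSeq (TAIR10.1), used for names and neighbours only. One model of group means over 16 arrays was fitted (limma 3.58.1, R 4.3.3, functions lmFit and eBayes; 19.65 degrees of freedom), with two-sided moderated tests and Benjamini-Hochberg adjustment over all 22746; every limma adjusted p comes from it unless an alternative is named. The script was tested on simulated data.

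The 9 genes and the lists were chosen with earlier results of these data known. The LEA groups and further lists were written from general knowledge. Text names all 9, other LEA genes called for DEX or the difference, up to 3 called members of further lists, and the 10 genes most correlated. The alternatives were 8 other settings and leaving out each of the 16 arrays. Same-numbered arrays deviated together at -0.15 to 0.22, so the numbers were not taken as pairs.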

Additional observations from a re-analysis of the deposited data

Results flagged for a closer look

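For AT4G21020, far-red mock replicate 4 stood apart from the other 3 arrays of its group, at 7.482 against 6.76 to 6.86 on the log2 scale. It was the only such case among the 36 sets of 4 arrays examined (9 genes in 4 groups), where chance gives about 1 in 20.

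The DEX response differed between far-red and darkness for 2 of the 9 genes by the test of the difference itself, by 0.61 for LEA4-5 and by 1.5 for M17 on the log2 scale.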

How the results depend on the processing

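In 1051 values of the 9 genes under the alternatives, no called change took the opposite sign, and 9 crossed the threshold, each given beside its gene above. With DEX in darkness 4 to 6 of the 9 fell when 1 array was left out, and 4 to 5 under the other settings. The 9 genes higher in far-red numbered 8 without any single array, under mock and under DEX, and 5 under mock and 5 under DEX without dim probe sets, where only 5 of the 9 were tested. Those lower in far-red under mock numbered 0 to 1 when 1 array was left out. Those whose response was called higher in far-red numbered 2 to 3 when 1 array was left out and 1 with a trended and robust variance prior.

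Of the other 26 LEA genes, those higher with DEX in darkness numbered 0 to 1 when 1 array was left out and 1 without dim probe sets, and in far-red 1 with only the groups compared. Those whose response was called higher in far-red numbered 0 to 2 when 1 array was left out and 1 with each array centred on its median. With the replicate number as a block the counts were as without it, 5 lower with DEX in darkness and 8 higher in far-red. Without a background measure, changes of the dimmest genes may be understated.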
